A study of Mus musculus with 12 samples.

Results

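The mRNA of 4 nuclear receptor genes was followed in mouse skeletal muscle: Nr1d1 and Nr1d2, which encode REV-ERBα and REV-ERBβ, Rora, which encodes RORα, and Thra, which encodes the thyroid hormone receptor TRα. They were chosen by name and are 4 of the 14270 genes with values, and all 4 passed the filter of a mean of at least 1 FPKM (fragments per kilobase of transcript, scaled to the library's total) that left 9953 genes to test. The tissue was the tibialis anterior, a fast limb muscle on the front of the lower leg, and RNA-seq had been done on 12 libraries in 4 groups of 3. The groups were muscle labelled KO at ZT22, WT at ZT22, KO at ZT10 and WT at ZT10, where KO stands for a deletion of the Rev-erbs confined to skeletal muscle and ZT counts hours after lights on. No source used here gives the driver of the deletion, the exons it removes, or the strain, sex and age of the mice. The design text of the series gives ZT0 and ZT12 in place of the times in the sample titles, so the clock hour is uncertain, while the grouping is not. Nothing in the labels says whether the 3 replicates came from separate animals, and p-values measure the spread between these libraries only.

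REV-ERBα and REV-ERBβ bind DNA at response elements shared with the ROR receptors and recruit corepressors, so they silence genes that RORs activate. Both are part of the circadian clock, in which BMAL1 and CLOCK drive transcription of Nr1d1 and Nr1d2 through E-boxes and the REV-ERB proteins repress the BMAL1 gene, Arntl, in return. TRα is the main thyroid hormone receptor of skeletal muscle and is known for its control of metabolic rate and of fibre type. Nr1d1 lies on the strand opposite Thra, and the 3′ ends of the genes overlap.

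The sequence just upstream of the annotated starts is shown because regulation of Nr1d1 and Nr1d2 by the clock is known to act through their promoters. RefSeq (build GRCm38.p6) gave a promoter for 3 of the 4 genes; up to 250 bases before the start are printed 5′ to 3′, and 21 bases that lie inside the annotated Nr1d2 gene are left out. Capitals mark matches, on either strand, to CACGTG or CACGTT (E-box forms), AGGTCA or GGGTCA (nuclear receptor half-sites) and TTANGTAA (a D-box).
Nr1d1 promoter, chr11:98775378-98775627 (- strand): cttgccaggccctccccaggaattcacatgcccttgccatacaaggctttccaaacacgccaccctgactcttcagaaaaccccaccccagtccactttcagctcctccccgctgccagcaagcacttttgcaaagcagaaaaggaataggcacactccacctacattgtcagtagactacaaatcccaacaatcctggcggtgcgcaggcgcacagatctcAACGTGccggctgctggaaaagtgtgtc
Nr1d2 promoter, chr14:18239128-18239356 (- strand): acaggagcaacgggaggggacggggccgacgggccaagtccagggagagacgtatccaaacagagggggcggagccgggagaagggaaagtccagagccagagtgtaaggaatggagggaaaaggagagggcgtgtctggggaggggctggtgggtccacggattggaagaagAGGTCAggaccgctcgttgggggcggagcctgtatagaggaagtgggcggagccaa
Rora promoter, chr9:68653536-68653785 (+ strand): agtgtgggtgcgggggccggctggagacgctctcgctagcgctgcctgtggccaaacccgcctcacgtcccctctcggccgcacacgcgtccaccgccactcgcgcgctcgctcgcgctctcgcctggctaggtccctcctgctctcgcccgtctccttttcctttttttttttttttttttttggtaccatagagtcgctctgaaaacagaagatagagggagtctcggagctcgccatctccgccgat
Nr1d1 had a single match, to CACGTT read on the opposite strand, at positions -28 to -23 from the RefSeq start. Nr1d2 had a single match, AGGTCA at positions -77 to -72, and the Rora window held none of these letters. Of 32851 RefSeq promoters cut to the same length, 3.85% held CACGTT, 14.0% held AGGTCA, 6.02% held CACGTG, 11.6% held GGGTCA and 2.06% held TTANGTAA. These matches describe letters in a short window, and binding at them was not measured. The windows contained 54.8% G and C for Nr1d1, 63.6% for Nr1d2 and 61.2% for Rora, against a median of 52.4% over all promoters.

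The deposited values are taken here as FPKM, a unit inferred from the values, with no counts. Low values followed steps of whole fragments too weakly to give a depth, so the depth is unknown. Summed FPKM was 455742 to 470954 in the ZT22 libraries and 501839 to 549363 in the ZT10 libraries, so a technical difference between the times cannot be told apart from the time of day. All 9 muscle fibre markers were above 0 in every group, with sums of 75962 to 79655 FPKM in KO and 63284 to 71041 in WT libraries at ZT22, and of 100282 to 107166 in KO and 83240 to 92747 in WT libraries at ZT10. Of the marker lists for 8 other cell types, the sums of adipocyte markers did not overlap between genotype labels, with sums of 8.85 to 15.6 FPKM in KO and 17.4 to 29.1 in WT libraries at ZT22, and of 19.5 to 36.6 in KO and 10.1 to 18.4 in WT libraries at ZT10. The KO sums were thus lower at ZT22 and higher at ZT10. Limma called 0 of the 3 adipocyte genes tested at either time, with an unadjusted p under 0.05 for 1 at ZT22 and 3 at ZT10. It called 1 of 9 muscle fibre markers higher and 1 lower in KO at ZT22, and 3 higher and 1 lower at ZT10. When every gene was tested, 1 muscle fibre call was left at ZT10, a fall. Of 5 endothelial genes it called 1 lower at ZT22 and 0 at ZT10. Of 2 Schwann cell genes tested it called 1 higher at each time. Over all genes limma called 18.3% at ZT22 and 14.3% at ZT10. Endothelial markers summed to 68.3 to 74.3 FPKM in KO and 76.8 to 97.1 in WT libraries at ZT22, and Schwann cell markers to 15.3 to 17.6 in KO and 8.57 to 12.4 in WT libraries at ZT10. Satellite cell markers summed to 8.99 to 10.8 FPKM in KO and 6.46 to 8.83 in WT libraries at ZT22. The fibroblast, leukocyte, smooth muscle and blood lists overlapped between the genotypes at each time. The part of these markers in the receptor values below was not tested.

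Nr1d1 was the most abundant of 30 nuclear receptor mRNAs tested in libraries labelled KO. At ZT22 it had 354.31, 369.15 and 327.72 FPKM in the libraries labelled KO, against 52.67, 54 and 37.99 FPKM in WT libraries. At ZT10 it had 419.99, 502.81 and 359.27 FPKM in the libraries labelled KO, against 37.03, 31.61 and 27.64 FPKM in WT libraries. The lowest KO value at either time was far above the highest WT value, so the groups did not overlap. The KO mean was 7.27 times the WT mean at ZT22 and 13.3 times at ZT10, and limma gave log2 differences of 2.85 ± 0.15 (adjusted p = 2.5e-07) and 3.69 ± 0.15 (adjusted p = 3.19e-08), where errors of log2 differences are standard errors with n = 3 against 3. Nr1d1 is a gene that the label KO names as deleted, so its mRNA goes against the direction of that label. Values for a whole gene do not show whether exons are missing, so they do not check the deletion, and below KO and WT name libraries by their labels. In bulk muscle, the number of cells of a type and the RNA per cell cannot be told apart.

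Nr1d1 lies at chr11:98767932-98775333 on the minus strand of GRCm38 (ENSMUSG00000020889.11 in GENCODE M21), with 2 transcripts of up to 8 exons. Among all 14270 genes of a library, its percentile by FPKM was 98.9 to 99.0 in KO and 89.9 to 92.4 in WT libraries at ZT22. At ZT10 it was 98.7 to 99.2 in KO and 86.0 to 89.3 in WT libraries. Among the 30 receptor genes Nr1d1 ranked 1 in the KO groups, against rank 4 in WT muscle at ZT22 and rank 7 in WT muscle at ZT10.

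**Figure D1:**
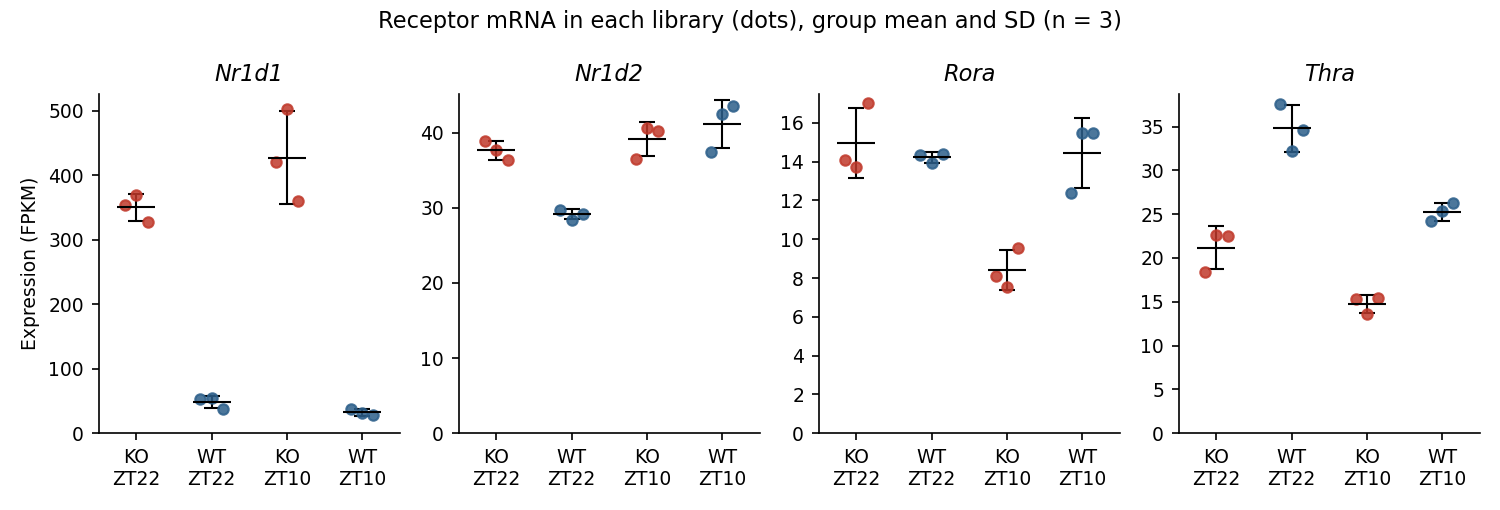
Expression of Nr1d1, Nr1d2, Rora and Thra in FPKM (y axis, from 0, scaled per gene) in KO and WT libraries at ZT22 and at ZT10 (x axis); points are libraries, and lines are the mean and SD of 3. Nr1d1 is at 328 to 503 FPKM in KO and 27.6 to 54.0 FPKM in WT libraries, and Thra is lower in KO than in WT libraries at each time.

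Nr1d2, the paralogue of Nr1d1 and the other gene named by the label, had values close to those of WT muscle and was higher in the KO libraries at ZT22 by a small margin. At ZT22 it had 38.9, 37.64 and 36.31 FPKM in KO libraries, against 29.74, 28.4 and 29.18 FPKM in WT libraries. At ZT10 it had 36.5, 40.61 and 40.16 FPKM in KO libraries, against 37.47, 42.41 and 43.57 FPKM in WT libraries. The groups were apart at ZT22 and overlapped at ZT10. In limma the log2 difference was 0.36 ± 0.08 at ZT22 (adjusted p = 0.0078). At ZT10 it was -0.07 ± 0.08 (adjusted p = 0.593), with a 95% interval from -0.24 to 0.10. Nr1d2 lies at chr14:18204054-18239127 on the minus strand of GRCm38 (ENSMUSG00000021775.11), with 4 transcripts.

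Nr1d1 made up a larger part of the REV-ERB mRNA in the libraries labelled KO. Summed over both genes, REV-ERB mRNA was 364 to 407 FPKM in KO and 67.2 to 82.4 FPKM in WT libraries at ZT22, and 399 to 543 FPKM in KO and 71.2 to 74.5 FPKM in WT libraries at ZT10. Nr1d1 made up 90.0% to 90.7% of that sum in KO and 56.6% to 65.5% in WT libraries at ZT22. At ZT10 it made up 89.9% to 92.5% in KO and 38.8% to 49.7% in WT libraries. In WT muscle Nr1d2 was thus the more abundant of the pair at ZT10 and Nr1d1 at ZT22, while Nr1d1 led in every KO library. The within-library log2 ratio of Nr1d1 to Nr1d2, taken of values plus 1 FPKM, was higher in KO than in WT muscle by 2.49 at ZT22 and by 3.76 at ZT10. An exact permutation test of the genotype labels within each time, two-sided over 400 arrangements, gave p = 0.005, the smallest p it can give.

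**Figure D2:**
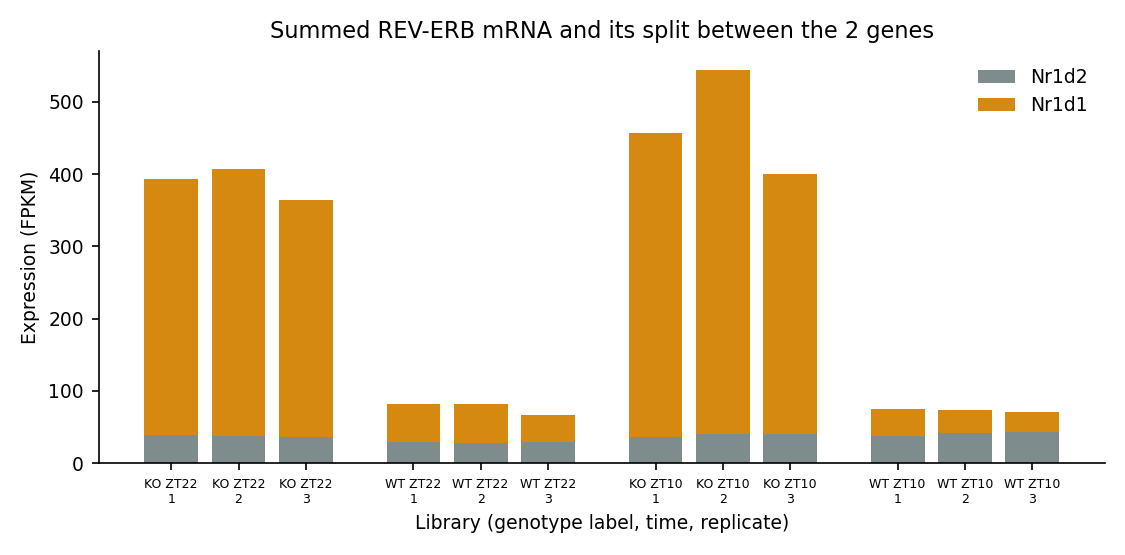
Summed Nr1d1 and Nr1d2 expression in FPKM (y axis) in each of the 12 libraries (x axis, by genotype label, time and replicate), split into the 2 genes. The sum is 364 to 543 FPKM in KO and 67.2 to 82.4 FPKM in WT libraries, and the Nr1d2 segment stays between 28.4 and 43.6 FPKM.

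Rora, the activator that shares response elements with the REV-ERBs, was lower in KO muscle at ZT10 and close to WT muscle at ZT22. At ZT22 it had 14.11, 13.73 and 17.03 FPKM in KO libraries, against 14.35, 13.91 and 14.39 FPKM in WT libraries. At ZT10 it had 8.1, 7.55 and 9.57 FPKM in KO libraries, against 12.36, 15.48 and 15.48 FPKM in WT libraries. The groups overlapped at ZT22, and every KO value lay under every WT value at ZT10. Limma gave a log2 difference of -0.71 ± 0.11 at ZT10 (adjusted p = 0.00132), a WT mean 1.72 times the KO mean. At ZT22 it gave 0.06 ± 0.11 (adjusted p = 0.745) with a 95% interval from -0.18 to 0.31, and the sign of this value turned when KO replicate 3 was left out (-0.028). Rora spans chr9:68653786-69388246 on the plus strand of GRCm38 (ENSMUSG00000032238.17), with 6 transcripts of up to 11 exons. In FPKM, which is per transcript length, Rora ranked 13 of 30 receptor genes at ZT22 in each genotype.

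Thra fell in KO muscle at both times. At ZT22 it had 18.36, 22.61 and 22.55 FPKM in KO libraries, against 37.57, 32.24 and 34.64 FPKM in WT libraries. At ZT10 it had 15.34, 13.55 and 15.42 FPKM in KO libraries, against 24.18, 25.31 and 26.28 FPKM in WT libraries. All KO values lay under all WT values of the same time. Limma gave log2 differences of -0.70 ± 0.10 at ZT22 (adjusted p = 0.000514) and -0.74 ± 0.10 at ZT10 (adjusted p = 0.000343). The paralogue Thrb, which encodes TRβ, differed by 0.10 ± 0.14 at ZT22 (adjusted p = 0.689) and 0.04 ± 0.14 at ZT10 (adjusted p = 0.87). Each of these Thrb values changed sign when a library was left out, as given in the closing section.

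Thra lies at chr11:98740638-98769006 on the plus strand of GRCm38 (ENSMUSG00000058756.13), with 9 transcripts of up to 10 exons. Its span and that of Nr1d1 share 1075 bases. Their exons share 263 bases, at chr11:98768157-98768419, which are 8.55% of the annotated exon bases of Nr1d1 and 5.70% of those of Thra, and lie in 2 of the 9 Thra transcripts. No source used here gives the strand setting of the authors' counting, so fragments from the shared stretch cannot be assigned to either gene. In the same libraries Nr1d1 was higher and Thra lower under the KO label, and the values are gene totals that do not resolve this stretch.

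No other tested gene within 200 kb of these loci passed the test in either comparison of KO with WT. These are counts of few genes, so they are not read as a difference from all genes or from genes farther away. Within 200 kb of Nr1d1 or Thra, limma called 0 of 7 other tested genes at ZT22 and at ZT10, and 0 had an unadjusted p under 0.05. Their log2 differences ran from -0.19 to 0.13 at ZT22 and from -0.14 to 0.06 at ZT10. These included Med24, a Mediator subunit 11.2 kb from Thra (-0.19 at ZT22, adjusted p = 0.172), and Rara, a retinoic acid receptor gene (0.13 at ZT22, adjusted p = 0.665). Within 200 kb of Nr1d2, limma called 0 of 4 genes at each time, of which 2 at ZT22 and 3 at ZT10 had an unadjusted p under 0.05, and the smallest adjusted p was 0.109 at ZT22 and 0.0636 at ZT10. Within 200 kb of Rora, limma called 0 of 2 genes, with 0 at an unadjusted p under 0.05. Of 10 genes listed for the wider region around Nr1d2, all tested, 2 rose and 1 fell at ZT22 and 1 rose at ZT10, where limma called 18.3% of all genes at ZT22 and 14.3% at ZT10. Ngly1, which encodes an enzyme that removes N-glycans from proteins, had log2 differences of 0.43 ± 0.09 at ZT22 (adjusted p = 0.00785) and 0.34 ± 0.09 at ZT10 (adjusted p = 0.0299), and its ZT10 call was kept under 13 of 19 alternative settings. Top2b, a DNA topoisomerase gene, had 0.49 ± 0.11 at ZT22 (adjusted p = 0.0104). Ube2e2, a ubiquitin-conjugating enzyme gene, had -0.50 ± 0.14 at ZT22 (adjusted p = 0.025), a call kept under 14 of 18 alternative settings. Of the 9 tested genes listed for the wider region around Nr1d1 and Thra, limma called 0 at each time, with 1 at an unadjusted p under 0.05 at each.

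**Figure D3:**
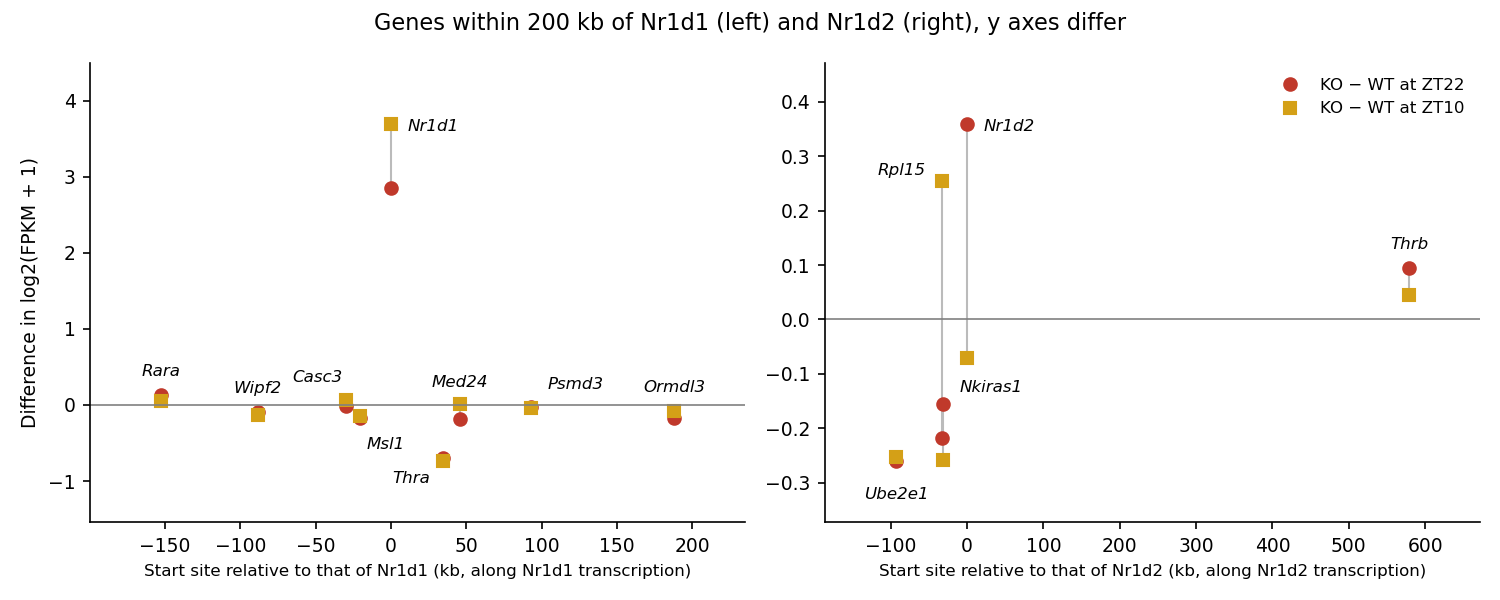
Log2 difference, KO minus WT (y axis, scales differ), of tested genes whose annotated span lies within 200 kb of Nr1d1 (left) or Nr1d2 (right), against the distance of their start site in kb (x axis); circles are ZT22 and squares ZT10. In the left panel Nr1d1 (2.85 and 3.69) and Thra (-0.70 and -0.74) stand away from 0, and the other 7 genes lie between -0.19 and 0.13.

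Counted over the members, limma called 3 of 4 in the comparison of KO with WT at ZT22, where it called 18.3% of all genes tested, and 3 of 4 at ZT10, where it called 14.3%. At ZT22 the member not called was Rora, and at ZT10 it was Nr1d2. Groups did not overlap for 3 of 4 members at ZT22, against 41.5% of all genes, and for 3 of 4 at ZT10, against 30.2%. The median log2 difference of all genes was -0.04 at ZT22 and -0.05 at ZT10.

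Between the times of day, WT muscle had more Nr1d1 and Thra and less Nr1d2 at ZT22 than at ZT10. Limma gave log2 differences, ZT22 minus ZT10 in WT libraries, of 0.57 ± 0.15 for Nr1d1 (adjusted p = 0.0186), 0.45 ± 0.10 for Thra (adjusted p = 0.00654) and -0.48 ± 0.08 for Nr1d2 (adjusted p = 0.00139). Rora differed by -0.01 ± 0.11 (adjusted p = 0.94), with a 95% interval from -0.26 to 0.23. Thus 3 of 4 members were called, where limma called 24.2% of all genes, and the same 3 had groups that did not overlap, against 43.6% of all genes. The Nr1d1 call was lost, at 0.41 (adjusted p = 0.0697), when libraries were scaled by their median ratio, as was that of Thra, at 0.30 (adjusted p = 0.0529). That scaling moved the median log2 difference of all genes between times to -0.04 in WT muscle, against 0.09 without it. The Nr1d1 call was also lost on leaving out WT ZT22 replicate 1 (0.49, adjusted p = 0.0735) or 2 (0.48, adjusted p = 0.0807), or WT ZT10 replicate 2 (0.56, adjusted p = 0.0501) or 3 (0.47, adjusted p = 0.0677).

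In libraries labelled KO, Rora and Thra were higher at ZT22 than at ZT10, and the REV-ERB genes did not pass the test. Rora differed by 0.76 ± 0.11 (adjusted p = 0.000279) in limma, a ZT22 mean 1.78 times the ZT10 mean, and Thra by 0.49 ± 0.10 (adjusted p = 0.00166). Nr1d1 differed by -0.27 ± 0.15 (adjusted p = 0.164, 95% interval from -0.60 to 0.06), and median-ratio scaling gave it a call in the same direction (-0.43, adjusted p = 0.0408). Nr1d2 differed by -0.05 ± 0.08 (adjusted p = 0.607, 95% interval from -0.22 to 0.11). Here 2 of 4 members were called, where limma called 42.6% of all genes, and the groups did not overlap for these 2, against 51.2% of all genes. The median over all genes was 0.11, and -0.02 after median-ratio scaling. Endothelial markers also differed between the times, with sums of 68.3 to 74.3 FPKM at ZT22 and 37.8 to 50.8 at ZT10 in KO libraries, and of 76.8 to 97.1 FPKM at ZT22 and 45.6 to 52.4 at ZT10 in WT libraries. Limma called 3 of 5 of them higher at ZT22 in each genotype, all 5 were above 0 in every group, and their part in the receptor differences between times was not tested.

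Whether the difference between KO and WT itself depended on the time was tested as an interaction, the ZT22 difference minus the ZT10 difference. Limma called 0 of 4 members and 0.0402% of all genes, 4 in all, and 3 of 4 members had an unadjusted p under 0.05. The share of all genes at that unadjusted threshold was not computed, so the count of 3 is not read as a result about the members. The interaction was 0.78 ± 0.16 for Rora (adjusted p = 0.0729), 0.43 ± 0.11 for Nr1d2 (adjusted p = 0.103) and -0.84 ± 0.21 for Nr1d1 (adjusted p = 0.103). Thra had 0.04 ± 0.14 (adjusted p = 0.908), with a 95% interval from -0.25 to 0.34. The Rora interaction passed on leaving out KO ZT10 replicate 3 (0.86, adjusted p = 0.0392) or WT ZT10 replicate 1 (0.88, adjusted p = 0.0398), and when genes under a mean of 5 FPKM were left out (0.78, adjusted p = 0.0466). So the absence of a Rora call at ZT22 and its presence at ZT10 was not shown to be a difference between the times at the threshold used.

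**Figure D4:**
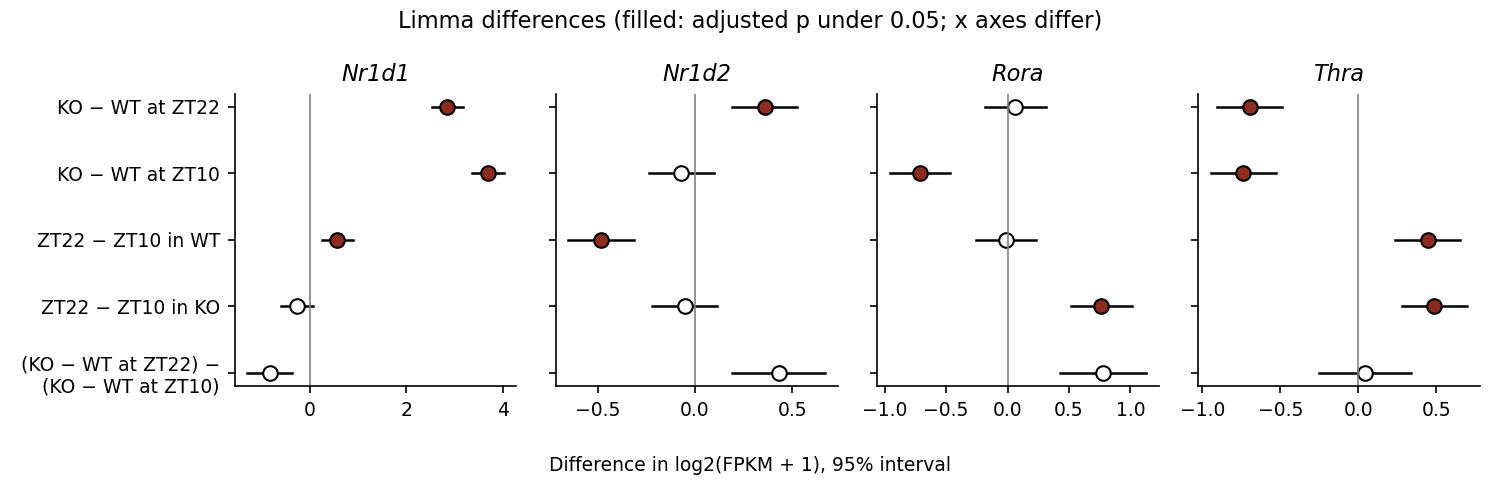
Limma log2 differences of the 4 receptor genes (x axis, scales differ) for KO minus WT at each time, ZT22 minus ZT10 in each genotype and the interaction (rows); bars are 95% intervals and filled points have an adjusted p under 0.05. Thra is called in 4 rows, Nr1d1 in 3, Nr1d2 and Rora in 2 each, and none in the interaction.

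Each REV-ERB gene was set against Rora as a ratio of mRNA within a library. Gene totals do not show whether REV-ERB mRNA in KO libraries encodes a working repressor, and other ROR genes are not part of these ratios. The ratios therefore do not measure the balance of repression and activation. Nr1d1 was 19.2 to 26.9 times Rora in KO and 2.64 to 3.88 times in WT libraries at ZT22, and 37.5 to 66.6 times in KO and 1.79 to 2.996 times in WT libraries at ZT10. Nr1d2 was 2.13 to 2.76 times Rora in KO and 2.03 to 2.07 times in WT libraries at ZT22, and 4.20 to 5.38 times in KO and 2.74 to 3.03 times in WT libraries at ZT10. In each pairing the KO and WT ranges were apart, narrowly so for Nr1d2 at ZT22. Averaged over the times, the log2 ratio was higher in KO than in WT muscle by 3.60 for Nr1d1 to Rora and by 0.47 for Nr1d2 to Rora. Nr1d1 was 14.5 to 19.3 times Thra in KO and 1.10 to 1.67 times in WT libraries at ZT22, and 23.3 to 37.1 times in KO and 1.05 to 1.53 times in WT libraries at ZT10, a mean difference of 3.99 in log2 ratio. Over these and the ratio of Nr1d1 to Nr1d2, 4 ratios were tested, and the exact permutation p was 0.005 for each, the smallest the design allows, and 0.005 after Benjamini-Hochberg adjustment over the 4.

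Clock genes with response elements for REV-ERB and ROR were higher under the KO label. Of 6 such genes 5 were tested, among them Npas2, a relative of Clock, which is set apart below. The others all rose at both times. They were Arntl and Clock, which encode the activating pair of the clock, Nfil3, a repressor at D-boxes, and Cry1, a repressor of BMAL1 and CLOCK. Over all genes, limma called 18.3% at ZT22 and 14.3% at ZT10, in either direction. Npas2 averaged 7.19 FPKM in KO and 0.74 FPKM in WT libraries at ZT22, and 2.59 and 0.09 FPKM at ZT10. It passed the filter on the mean only through its KO libraries, so its rise is not counted as support. Of the other genes, Clock had a limma log2 difference of 1.24 at ZT22 and 1.15 at ZT10, and Cry1 of 1.03 at ZT22 and 0.86 at ZT10. Arntl averaged 46.7 ± 2.49 FPKM in KO and 17.4 ± 1.98 FPKM in WT libraries at ZT22, and 37.2 ± 4.52 FPKM in KO and 3.68 ± 0.387 FPKM in WT libraries at ZT10 (SD, n = 3 each). Limma gave 1.38 ± 0.11 (adjusted p = 6.12e-06) at ZT22 and 3.03 ± 0.11 (adjusted p = 1.34e-08) at ZT10. Of 15 regulators that act through E-boxes and D-boxes, 10 rose at ZT22 and 9 at ZT10 and 0 fell. At each time these counts include the 5 genes of the first list, Npas2 among them, so they are not separate evidence and are not read as support. Dbp, a D-box activator, averaged 85.4 ± 4.66 FPKM in KO and 6.97 ± 0.522 FPKM in WT libraries at ZT22. At ZT10 it averaged 119 ± 35.3 FPKM in KO and 47.8 ± 3.63 FPKM in WT libraries.

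Of 44 other nuclear receptor genes listed, 33 had values and 26 were tested. In KO muscle 1 rose and 7 fell at ZT22, and 1 rose and 5 fell at ZT10, but after median-ratio scaling 2 rose and 5 fell at ZT22, and 2 rose and 2 fell at ZT10. Before that scaling limma called 18.3% of all genes at ZT22 and 14.3% at ZT10. The counts are not read as particular to the nuclear receptor genes. Their median log2 difference was -0.18 at ZT22 and -0.15 at ZT10. Rxrg and Rxra, whose RXR proteins pair with TRα on DNA, fell at ZT22 by 0.70 ± 0.15 (adjusted p = 0.00615) and by 0.46 ± 0.10 (adjusted p = 0.00747) on the log2 scale in limma. Ppara, a receptor for fatty acids, had -0.73 ± 0.11 at ZT10 (adjusted p = 0.000767) and -0.21 ± 0.11 at ZT22 (adjusted p = 0.201). Ppard, a related receptor, rose at ZT10 by 0.70 ± 0.14 (adjusted p = 0.00619), and Esrra, an orphan receptor that drives mitochondrial genes, fell at ZT22 by 0.54 ± 0.10 (adjusted p = 0.00305). Nr1h3 also fell at ZT22. Calls at ZT22 were kept under only 7 of 19 alternative settings for Nr1h2, 6 of 18 for Nr2f2 and 8 of 19 for Nr2f6. Calls at ZT10 were kept under 14 of 19 for Rxra, 6 of 19 for Rxrg and 5 of 19 for Esrra.

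**Figure D5:**
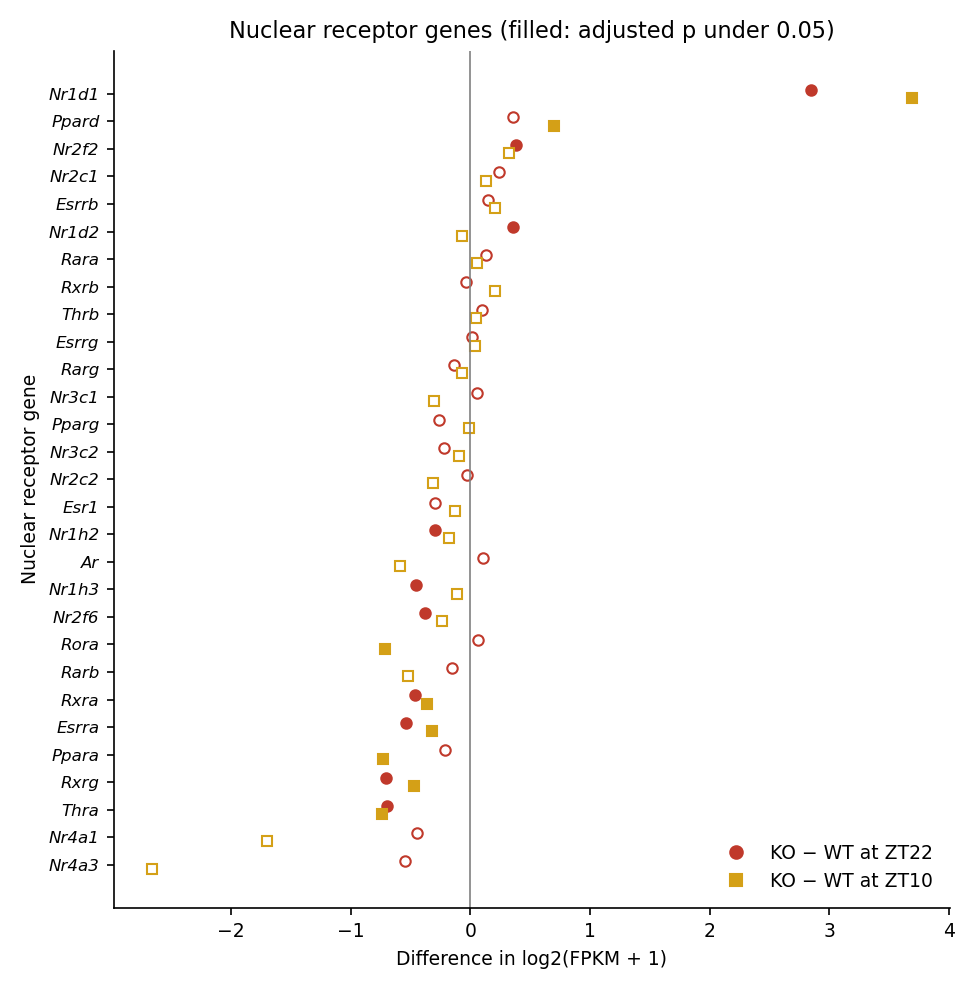
Log2 difference, KO minus WT (x axis), of the nuclear receptor genes tested that are reported here (y axis, ordered by the mean of the times); circles are ZT22, squares are ZT10, and filled marks have an adjusted p under 0.05. Nr1d1 is at the top at 2.85 and 3.69, while Thra lies near -0.7 at both times and Rora is filled at ZT10 only.

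Genes whose products work with these receptors form short lists, and their counts are not read as particular to them beside the 18.3% of all genes called at ZT22 and the 14.3% called at ZT10. Of 6 corepressor genes limma called 1 at each time, and at ZT10 this was Gps2, which rose by 0.32 ± 0.09 (adjusted p = 0.0429). The gene called at ZT22 fell, while after median-ratio scaling the 1 gene called at ZT22 rose. Of 9 coactivator genes, Ncoa3 fell at ZT10 by 0.36 ± 0.10 (adjusted p = 0.0312), and limma called 0 at ZT22, with 0 at an unadjusted p under 0.05. Of 11 genes of thyroid hormone transport and conversion, 5 were tested, of which limma called 1 at ZT22 and 0 at ZT10, with 1 at an unadjusted p under 0.05 at ZT10. Of 19 alternative settings, the ZT10 call of Gps2 was kept under only 8 and that of Ncoa3 under 14.

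Among 18 genes known to respond to thyroid hormone, 17 were tested, and 2 rose and 2 fell at each time, with a median log2 difference of -0.09 at ZT22 and 0.06 at ZT10. After median-ratio scaling 2 rose and 1 fell at ZT22, and 3 rose and 2 fell at ZT10. Before that scaling limma called 18.3% of all genes at ZT22 and 14.3% at ZT10, and the counts are not read as particular to this list. Me1, malic enzyme, rose by 0.70 ± 0.08 at ZT22 (adjusted p = 0.000176) and by 0.45 ± 0.08 at ZT10 (adjusted p = 0.00366) in limma. Slc2a4, the insulin-regulated glucose transporter GLUT4, fell by 0.35 ± 0.07 at ZT22 (adjusted p = 0.00677) and by 0.44 ± 0.07 at ZT10 (adjusted p = 0.00166). Myh1, a fast myosin heavy chain, fell by 0.91 ± 0.23 at ZT22 (adjusted p = 0.0157) and by 0.89 ± 0.23 at ZT10 (adjusted p = 0.0205), and Myod1, a myogenic transcription factor, rose by 1.39 ± 0.20 at ZT22 (adjusted p = 0.000633). Of 8 genes that act on REV-ERB stability or translation, 6 were tested, and Mycbp2, part of a ubiquitin ligase for REV-ERBα, fell by 0.55 ± 0.10 at ZT10 (adjusted p = 0.00369) and by 0.32 ± 0.10 at ZT22 (adjusted p = 0.0465). Of 19 alternative settings, the ZT22 call of Mycbp2 was kept under only 6, that of Myh1 under 16 at ZT22 and 15 at ZT10, and that of Slc2a4 at ZT22 under 18.

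The genes nearest to each member over the 12 libraries were found by the root mean square difference between log2(FPKM + 1) profiles centred on their own means. For Nr1d1, whose own profile varied by 1.66 about its mean, these were Gstm7, a glutathione transferase (0.31), Mapk8ip1, a JNK scaffold (0.36), and Chrna1, the α subunit of the muscle acetylcholine receptor (0.47). Chrna1 averaged 60.8 ± 9.33 FPKM in KO and 3.57 ± 0.565 FPKM in WT libraries at ZT22, and 59.7 ± 18.5 FPKM in KO and 2.50 ± 0.506 FPKM in WT libraries at ZT10 (SD, n = 3 each). For Thra, which varied by 0.44, those reported here were Ankrd33b (0.13) and Hspa4l, a chaperone gene (0.14). For Rora, which varied by 0.34, they were Txnrd1, a thioredoxin reductase (0.13), Irf8, an interferon regulatory factor (0.14), and Mpp5 (0.14). For Nr1d2, which varied by only 0.20, the nearest was Nr2c1, an orphan receptor gene (0.10). Genes whose difference exceeded that of the nearest by less than 0.05, the nearest included, numbered 78 for Nr1d2 and 32 for Rora. They numbered 12 for Thra and 2 for Nr1d1. So the order of neighbours is loose for Nr1d2 and Rora.

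In the authors' deposited table, the log2 fold change of Rora, KO over WT, was -0.75 at ZT10 (q = 7.2e-05) and 0.10 at ZT22 (q = 0.0002). In the same deposited table, q was under 0.05 for 54.8% of genes in the ZT22 comparison of KO with WT and for 6.80% in the ZT10 comparison, and at ZT22 the q-value was below its own p-value in 7694 entries, which occurred in 0 entries of the other 3 comparisons. The authors' deposited table gave Nr1d1, ZT22 over ZT10, as 0.42 in WT muscle (q = 0.0369) and -0.45 in KO muscle (q = 0.0215), and gave Thra as 0.31 in WT muscle (q = 0.0594) and 0.36 in KO muscle (q = 0.0811). No source used here describes the model that made these columns.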

How the data were processed

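RNA-seq was done on tibialis anterior muscle, 12 libraries in 4 groups of 3 taken from the sample titles. The authors deposited 1 table with a value per gene and library, taken here as FPKM; its header does not name the unit, which was inferred from the values. HISAT2, HTSeq and DESeq2 1.8.2 are named, per the submitters' processing notes, beside the builds GRCm38 and mm10, with no role or order. No source used here gives the annotation or the strand setting. The authors also deposited log2 fold changes, p-values and q-values for 4 comparisons, which were used as deposited; set against the library columns, the fold changes put the group named second on top.

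Of 14583 entries, 82 held no values and 230 were exact repeats. For Plin2, with 2 differing entries, the higher was kept, which left 14270 genes, 14084 of them matched to GENCODE M21 by symbol. Log2(FPKM + 1) was tested with limma 3.58.1 in R 4.3.3 (1 model with a mean per group, intensity trend) for genes averaging 1 FPKM or more, with Benjamini-Hochberg adjustment over the 9953 genes of a comparison and calls at an adjusted p under 0.05. The pseudocount of 1 understates the change of weakly expressed genes. Within-library ratios were tested by exact permutation. The fit was tested on simulated data. Tables and plots were made in Python 3.11.15 with matplotlib 3.10.9, scipy 1.17.1, pandas 2.3.3 and numpy 2.4.6.

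The genes named are the 4 receptors, the 3 genes nearest to each, tested genes within 200 kb, the 4 smallest adjusted p in each list and the nuclear receptor genes called; some of these are not reported here. The members, lists and alternatives were chosen with earlier results of these data known, and the promoter motifs after the sequences had been seen.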

Additional observations from a re-analysis of the deposited data

Results flagged for a closer look

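In the test of whether the difference between KO and WT muscle depended on the time, 2 clock genes on the lists used here passed. Arntl, the BMAL1 gene that REV-ERBs repress, had a smaller difference at ZT22 than at ZT10, with an interaction of -1.64 (limma, adjusted p = 0.0012). Dbp, a D-box activator, had a larger difference at ZT22, with an interaction of 2.18 (limma, adjusted p = 0.00399). Arntl was higher in all 3 KO libraries than in all 3 WT libraries at each time, and so was Dbp.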

How the results depend on the processing

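The alternatives were a smaller pseudocount (0.1), testing every gene, a mean of at least 5 FPKM, robust empirical Bayes, a replicate block, fitting the compared groups alone, median-of-ratios scaling and leaving out each of the 12 libraries. The direction and call of Nr1d1, Nr1d2 and Thra in KO against WT at each time, and of Rora at ZT10, were kept under all 19. With each library left out in turn, Rora at ZT22 ranged from -0.028 to 0.12 (KO minus WT), Rora between times in WT muscle from -0.12 to 0.036, and the Thra interaction from -0.015 to 0.14, so none has a settled sign. Thrb, KO minus WT, ranged from -0.048 to 0.22 at ZT22 and from -0.017 to 0.13 at ZT10. Nr1d1 between times in WT muscle ranged from 0.47 to 0.72 and lost its call under 4 of the 12, and the Rora interaction ranged from 0.69 to 0.88. Median-of-ratios scaling gave Nr1d1 between times 0.41 in WT muscle, with the call lost, and -0.43 in KO muscle, with a call gained, and Thra 0.30 in WT muscle, with the call lost. A mean of at least 5 FPKM gave the Rora interaction 0.78, with a call gained, on fewer genes tested.

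Counts of genes called moved more. For KO against WT at ZT10, 1425 were called, 748 when only the groups compared were fitted, and 847 to 1562 with a library left out; at ZT22, 1826 were called and 1035 to 2372 with a library left out. For ZT22 against ZT10 in WT muscle, 2404 were called, 1445 with a mean of at least 5 FPKM, and 1290 to 2929 with a library left out. For the interaction, 4 were called, 69 with a mean of at least 5 FPKM, and 2 to 77 with a library left out. The cause of these changes was not tested.

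Deviations of same-numbered libraries correlated weakly (from -0.13 to 0.21, median 0.06, over 0.1 in 2 of 18 pairs). Libraries with different numbers had a median of -0.02. No label pairs the libraries, so replicate numbers were not taken as pairs in the main fit. With the replicate block, Nr1d1 in KO muscle between times was -0.27 and gained a call (adjusted p = 0.048), and no other call of the 4 receptors changed. The depth is unknown, so no limits for low values are given.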
